A study of Mus musculus with 8 samples.

Results

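Ovarian follicles make steroid hormones from cholesterol. Star carries cholesterol into mitochondria, Cyp11a1 cuts its side chain, theca cells make androgens with Cyp17a1, and granulosa cells turn these into oestrogens with Cyp19a1 and Hsd17b1. Pituitary gonadotropins drive the pathway through the receptors Fshr and Lhcgr, and the nuclear receptors Nr5a1 and Nr5a2 and the forkhead factor Foxl2 control many of its genes. These genes are known for their work in the somatic cells around the oocyte, and the samples here were oocytes freed of cumulus cells. Members were chosen by name, with earlier results of these data known. They are every probe set (a group of probes for a transcript) whose single gene symbol in the platform annotation was 1 of these 10 genes. This gave 17 probe sets for 8 of the 10 genes, out of 45037 probe sets and 18193 genes in all. Cyp19a1 and Lhcgr were not analysed here, because no probe set carried either symbol in the annotation used.

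The arrays were Affymetrix mouse genome arrays, 1 per mouse, from 4 wild-type and 4 Dicer knockout females. All mice were of the strain 129/C57BL6, were primed with equine chorionic gonadotropin (eCG), a hormone that makes follicles grow, and gave fully grown oocytes with an intact germinal vesicle, the nucleus before meiosis resumes. Each sample held the RNA of 20 oocytes, amplified in rounds before labelling. The labels give no age, no deleted exons and no Cre driver, so they do not say whether follicle cells lacked Dicer too. Array medians lay between 6.35 and 6.43 on the log2 scale, and with 4 arrays a group precision is limited. Dicer1, which cuts microRNA precursors, rose in both of its probe sets on the knockout arrays, 2.28-fold in the brighter one (limma, adjusted p = 2.12e-05). With the deleted exons unknown, these probe sets do not check the genotype. Of 18 oocyte markers measured, the mean log2 signal was 13.10 to 13.25 on the wild-type arrays and 13.09 to 13.15 on the knockout arrays. Of these markers 7 (38.9%) fell and 2 (11.1%) rose, beside 12.8% and 8.18% of all genes, with a median difference of -0.04. Only 3 fell without knockout array 3, and 4 fell without knockout array 1 or 4 or wild-type array 1 or 4. Mos fell from 13.63 to 13.27 and Zar1 from 13.77 to 13.42, while Ddx4 rose 1.86-fold and Khdc3 1.78-fold (limma, adjusted p = 0.00781, 0.00839, 0.0324 and 0.0416). The Ddx4 call ended in 6 and the Khdc3 call in 5 of 8 fits that left out 1 array.

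In knockout oocytes the probe sets that fell were the brightest one of each of 4 genes, Cyp11a1, Hsd17b1, Nr5a2 and Fshr. The promoters of 3 of these genes are shown because the brightest probe set of each fell. They come from RefSeq (GRCm38.p6) and span 250 bases before to 50 bases after an annotated start. RefSeq windows were found for 6 of the 10 members, and Hsd17b1 was not among them. Capitals mark matches, on either strand, to the letters searched: TCAAGG, the first letters of sites that the Nr5a receptors bind; AAGGTCA, the end of such sites, which overlaps the former in a full site; the E-box CACGTG; and AGATAA, a site of GATA factors. Sequences run 5′ to 3′ on the strand of the gene.

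Cyp11a1, chr9:58014702-58015001, plus strand: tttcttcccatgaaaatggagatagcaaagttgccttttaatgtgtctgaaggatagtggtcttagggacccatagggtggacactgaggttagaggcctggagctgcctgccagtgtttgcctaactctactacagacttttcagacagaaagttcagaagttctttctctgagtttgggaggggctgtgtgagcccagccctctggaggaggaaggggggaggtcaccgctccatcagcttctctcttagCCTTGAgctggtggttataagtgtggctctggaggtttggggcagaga
Fshr, chr17:89200626-89200925, minus strand: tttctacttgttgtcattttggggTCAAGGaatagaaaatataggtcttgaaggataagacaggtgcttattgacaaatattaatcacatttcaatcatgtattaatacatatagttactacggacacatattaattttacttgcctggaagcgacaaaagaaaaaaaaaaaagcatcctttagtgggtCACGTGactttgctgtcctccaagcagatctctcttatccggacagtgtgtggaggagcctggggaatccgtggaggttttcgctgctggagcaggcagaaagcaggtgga
Nr5a2, chr1:136960399-136960698, minus strand: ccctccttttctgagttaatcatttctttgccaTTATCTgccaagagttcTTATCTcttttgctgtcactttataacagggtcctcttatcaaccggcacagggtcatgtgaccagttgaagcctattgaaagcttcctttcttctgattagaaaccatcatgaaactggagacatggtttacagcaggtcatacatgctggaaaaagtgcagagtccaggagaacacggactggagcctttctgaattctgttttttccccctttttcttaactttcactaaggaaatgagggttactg

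The Cyp11a1 window held TCAAGG on the opposite strand, with its first letter in the window at base 3 after the start. The Fshr window held TCAAGG 226 bases before the start and CACGTG 61 bases before it. The Nr5a2 window held AGATAA on the opposite strand at 217 and 200 bases before the start. None of the 10 windows of members held AAGGTCA. Of 32851 windows of the same length in the table, 14.4% held TCAAGG, 4.72% AAGGTCA, 7.15% CACGTG and 11.2% AGATAA. The other Cyp11a1 and Nr5a2 windows and the Foxl2 window held no match, and neither did the 3 Cyp19a1 windows. The Lhcgr window held TCAAGG 119 bases before the start. A match describes the letters and shows no binding.

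Of the 17 probe sets, 4 fell and 1 rose (limma, Benjamini-Hochberg adjusted p under 0.05 over all 45037 probe sets), where 9.31% of all probe sets fell and 6.82% rose. By the brightest probe set of each gene, 4 of 8 genes fell and 0 rose, where 12.8% of all genes fell and 8.18% rose. The members were chosen with earlier results of these data known, so these shares are no test of the pathway. Without knockout array 3, 2 of the 17 probe sets fell. The median difference was -0.23 on the log2 scale over the 17 probe sets, against 0.02 over all probe sets, and -0.34 over the 8 genes, against 0.00 over all genes. All knockout arrays lay below all wild-type arrays in 5 of the 17 probe sets, where 11.5% of all probe sets did so. In bulk samples, fewer cells of a type and less RNA per cell cannot be told apart.

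**Figure D1:**
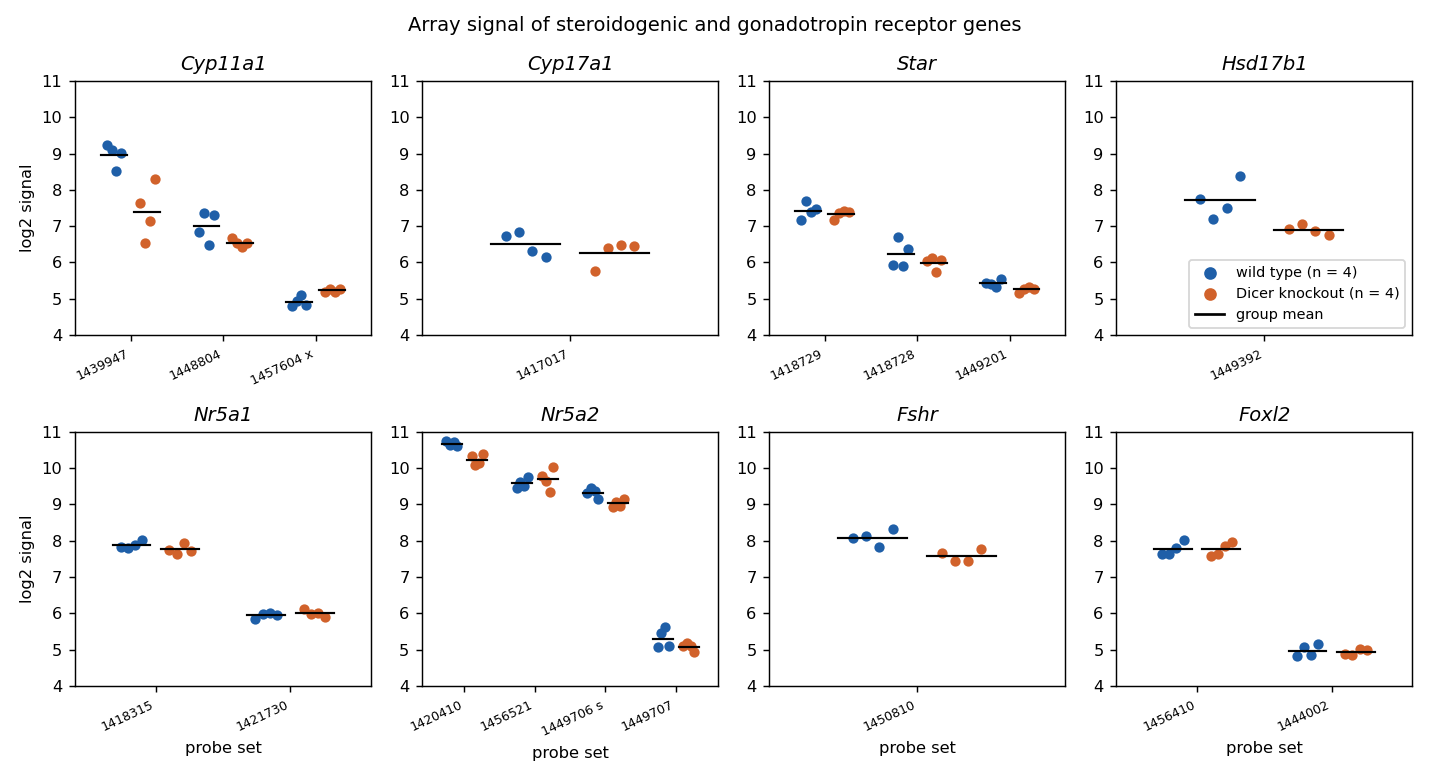
Log2 signal (vertical axis) of every probe set (horizontal axis) of the 8 measured genes, with 1 point per array, 4 wild-type arrays in blue and 4 Dicer knockout arrays in orange, and a black line at each group mean. The groups are apart in the brightest probe set of Cyp11a1, of Nr5a2 and in the single ones of Hsd17b1 and Fshr, and they overlap in the brightest ones of Star, Nr5a1, Foxl2 and Cyp17a1.

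Cyp11a1, on chromosome 9, encodes the side-chain cleavage enzyme that makes pregnenolone, the first step of all steroid synthesis. Its brightest probe set (1439947_at) read 9.23, 9.10, 8.53 and 9.02 on wild-type arrays 1 to 4 and 7.65, 6.53, 7.13 and 8.30 on knockout arrays 1 to 4. All knockout values lay below all wild-type values, and they spread more widely, with an SD of 0.751 against 0.305 (n = 4 each). The difference was -1.57 ± 0.327 (SE), a fall to 0.337 of the wild-type signal (limma, adjusted p = 0.0101, exact two-sided permutation p = 0.0286, the lowest value possible with 4 and 4 arrays). Any probe set whose groups do not overlap has this permutation p, so it adds nothing beyond that separation. The dimmest Star probe set, which did not pass, and the dimmest Cyp11a1 probe set, which rose, have it too. In the brightest probe sets of Star, Nr5a1, Foxl2 and Cyp17a1 the exact permutation p was 0.2 or more.

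The 3 Cyp11a1 probe sets did not move alike. The second one (1448804_at) read 6.84, 7.36, 6.49 and 7.32 in wild type, against 6.68, 6.53, 6.42 and 6.53 in knockout. Its groups overlapped, since wild-type array 3 was as low as the knockout arrays, and the difference of -0.46 ± 0.18 (SE) did not pass (limma, adjusted p = 0.123). Leaving out wild-type array 3 gave a difference of -0.63 that passed (limma, adjusted p = 0.0167). The dimmest one (1457604_x_at), whose suffix marks probes that may match other sequences, read 4.79, 4.94, 5.09 and 4.84 in wild type, against 5.19, 5.27, 5.19 and 5.26 in knockout. It rose by 0.31 ± 0.0808 (SE), with all knockout arrays above all wild-type arrays (limma, adjusted p = 0.0276), and this call ended without each single array other than wild-type array 3. Its mean over all arrays was 5.07, below 6.40, the median of such means over all probe sets. Of the 3 probe sets, only the brightest passed as lower, and only the second, which did not pass, is linked to a RefSeq mRNA in the annotation.

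Star, on chromosome 8, which delivers cholesterol to Cyp11a1, did not pass in any of its 3 probe sets. The brightest one (1418729_at) read 7.16, 7.70, 7.38 and 7.46 in wild type, against 7.18, 7.35, 7.43 and 7.40 in knockout. The knockout arrays all lay within the wild-type range, and the difference of -0.09 had a 95% interval of -0.34 to 0.17 (limma, adjusted p = 0.684). The middle one differed by -0.24 (interval -0.63 to 0.16) and the dimmest by -0.16 (interval -0.32 to 0.01). In the dimmest, all knockout arrays (5.17 to 5.31) lay below all wild-type arrays (5.33 to 5.53), by 0.02 log2 (adjusted p = 0.189).

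Cyp17a1, on chromosome 19, makes androgens in theca cells. Its probe set read 6.73, 6.84, 6.31 and 6.14 in wild type, against 5.76, 6.40, 6.48 and 6.44 in knockout. Knockout array 1 was the lowest of all and the other knockout arrays lay among the wild-type arrays. The difference was -0.23 with a 95% interval of -0.68 to 0.21 (limma, adjusted p = 0.495).

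Hsd17b1, on chromosome 11, reduces oestrone to oestradiol in granulosa cells. Its only probe set (1449392_at) read 7.75, 7.19, 7.50 and 8.39 in wild type, against 6.92, 7.07, 6.86 and 6.76 in knockout. Wild-type array 4 was the highest, and the wild-type arrays spread more widely than the knockout arrays (SD 0.511 and 0.13, n = 4 each). All knockout values lay below all wild-type values, with 0.12 log2 between wild-type array 2 and knockout array 2. The difference was -0.80 ± 0.217 (SE), a fall to 0.573 of the wild-type signal (limma, adjusted p = 0.0327, exact two-sided permutation p = 0.0286). The call ended without wild-type array 1 or without knockout arrays 1, 3 or 4, at adjusted p up to 0.0808, and the difference without single arrays lay between -0.98 and -0.58.

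**Figure D2:**
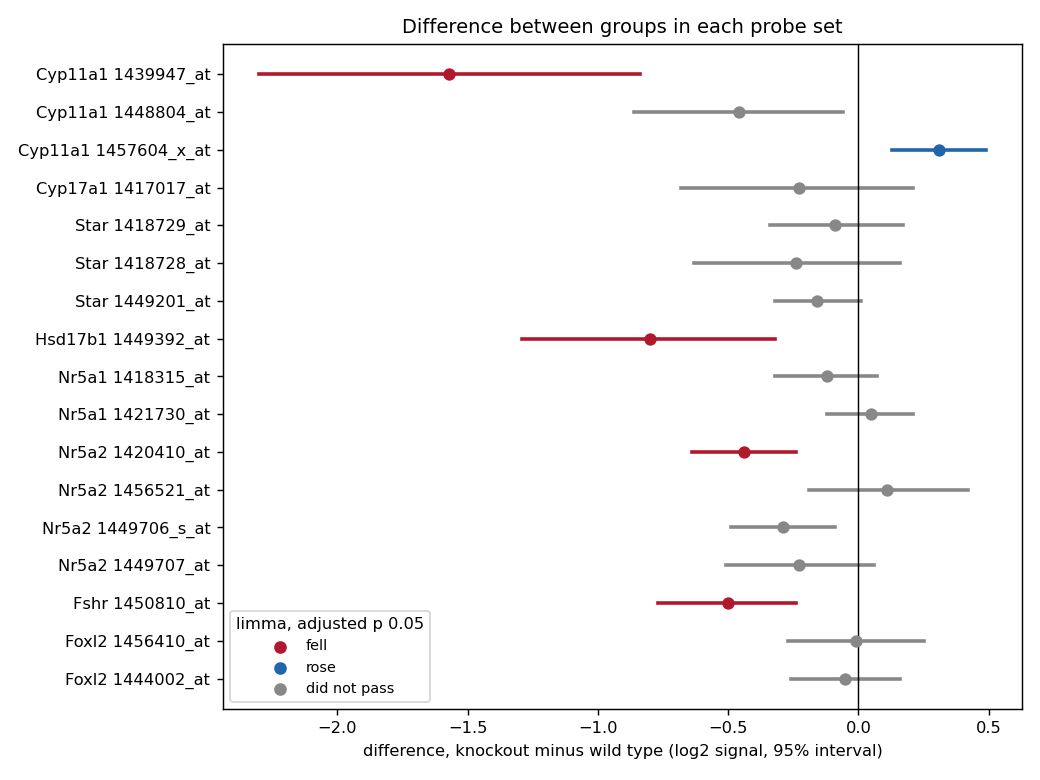
Difference between group means, knockout minus wild type in log2 signal (horizontal axis), for each of the 17 probe sets, with its 95% interval from the moderated SE; red fell, blue rose and grey did not pass. The 4 that fell lie between -1.57 and -0.44, and the 1 that rose is the dimmest Cyp11a1 probe set at 0.31.

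Fshr, on chromosome 17, encodes the receptor of follicle-stimulating hormone and is a defining gene of granulosa cells. Its probe set (1450810_at) read 8.07, 8.12, 7.82 and 8.31 in wild type, against 7.65, 7.44, 7.45 and 7.77 in knockout. The groups did not overlap, with wild-type array 3 the lowest wild-type array and knockout array 4 only 0.05 log2 below it. The difference was -0.50 ± 0.118 (SE), a fall to 0.706 of the wild-type signal (limma, adjusted p = 0.0182, exact two-sided permutation p = 0.0286). Without knockout array 3 the call ended (adjusted p = 0.054).

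Nr5a2, on chromosome 1, encodes the nuclear receptor LRH-1, which granulosa cells need for ovulation and which also acts in early embryos. Its brightest probe set (1420410_at) read 10.75, 10.64, 10.71 and 10.60 in wild type, against 10.33, 10.09, 10.13 and 10.40 in knockout. The wild-type values lay close together (SD 0.0664) and 0.19 log2 separated the groups. The difference was -0.44 ± 0.0885 (SE), a fall to 0.738 of the wild-type signal (limma, adjusted p = 0.00863, exact two-sided permutation p = 0.0286), and the call held without each single array, at adjusted p up to 0.0273.

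The other 3 Nr5a2 probe sets did not pass. The second in brightness (1456521_at) read 9.46, 9.62, 9.51 and 9.76 in wild type, against 9.79, 9.65, 9.35 and 10.02 in knockout, a difference of 0.11 in the opposite direction (limma, adjusted p = 0.647). Its knockout arrays included both the highest and the lowest value. The third (1449706_s_at), whose suffix marks probes shared between transcripts, read 9.31, 9.45, 9.37 and 9.15 in wild type, against 8.92, 9.08, 8.95 and 9.16 in knockout. Wild-type array 4 and knockout array 4 met at the boundary, and the difference of -0.29 missed the threshold (adjusted p = 0.0549). It passed without wild-type array 4, and also after median scaling or a filter on dim probe sets, at adjusted p as low as 0.0367. The dimmest differed by -0.23 (adjusted p = 0.295).

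Nr5a1, on chromosome 2, encodes the related receptor SF-1, which binds the same letters as Nr5a2. Its brighter probe set (1418315_at) read 7.82, 7.81, 7.88 and 8.03 in wild type, against 7.75, 7.64, 7.94 and 7.71 in knockout. Knockout array 3 lay among the wild-type arrays and the other knockout arrays below all of them. The difference of -0.12 did not pass (95% interval -0.32 to 0.07, limma, adjusted p = 0.41), and the dimmer probe set differed by 0.05 (interval -0.12 to 0.21).

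Foxl2, on chromosome 9, keeps granulosa cells in their female identity. Its brighter probe set (1456410_at) read 7.62, 7.64, 7.79 and 8.02 in wild type, against 7.58, 7.64, 7.86 and 7.96 in knockout. The groups overlapped over nearly their whole range, and the difference of -0.01 had an interval of -0.27 to 0.25 (limma, adjusted p = 0.971). The dimmer one differed by -0.05 (interval -0.26 to 0.16). The sign of both changed with single arrays left out, and that of the brighter one also with quantile scaling.

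The 4 probe sets that fell did not share one order of arrays. In Cyp11a1, Nr5a2 and Fshr, knockout array 4 was the highest and knockout array 2 the lowest knockout array. In Hsd17b1 the order was turned, with knockout array 2 the highest (7.07) and knockout array 4 the lowest (6.76). Averaged over the 4 probe sets, the deviation from the wild-type mean was -0.72, -1.08, -0.97 and -0.55 on knockout arrays 1 to 4, and 0.09, -0.09, -0.22 and 0.22 on wild-type arrays 1 to 4. These 4 probe sets were picked by their fall, so negative values on the knockout arrays follow from that choice. Some mice carry the same first number in their title code, whose meaning the labels do not give. Between the arrays numbered 24 (wild-type array 1 and knockout array 2) Cyp11a1 differed by -2.70, Hsd17b1 by -0.68, Nr5a2 by -0.66 and Fshr by -0.63. Between those numbered 27 (wild-type array 2 and knockout array 4) the differences were -0.80, -0.43, -0.24 and -0.35.

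**Figure D3:**
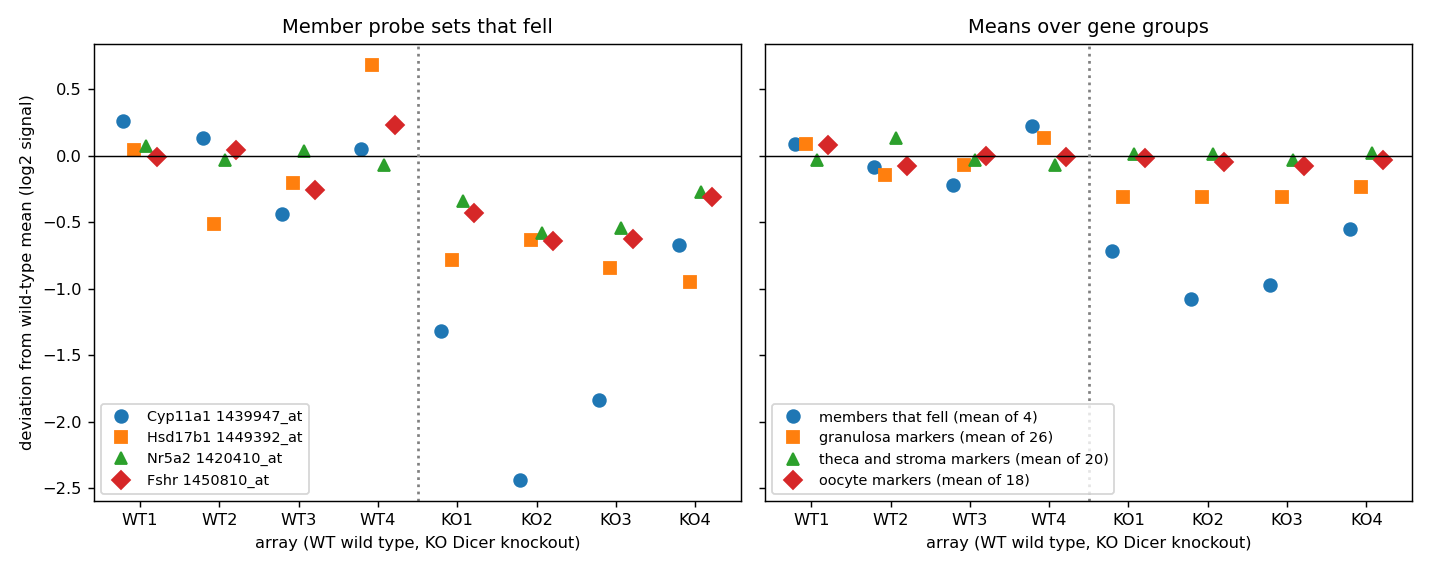
Deviation of each array from the wild-type mean in log2 signal (vertical axis) for arrays 1 to 4 of each group (horizontal axis); the left panel shows the 4 probe sets that fell and the right panel means over gene groups. On the knockout arrays the granulosa markers lie at -0.31 to -0.24, while theca and oocyte markers stay within 0.08 of the wild-type mean. Of the 18 oocyte markers, 7 fell and 2 rose. The members that fell lie at -1.08 to -0.55, but they were chosen by their fall, while each marker list was taken whole. The marker lists too were chosen with earlier results of these data known. Not drawn are the endothelial markers (mean 6.73 to 6.85 in wild type, 6.29 to 6.46 in knockout) and the leukocyte and blood markers (6.50 to 6.58 and 6.95 to 7.12).

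Cumulus cells are the granulosa cells in direct contact with the oocyte, and mural granulosa cells line the follicle wall. Of 26 of their markers measured besides the members, 8 (30.8%) fell and 2 (7.69%) rose, beside 12.8% and 8.18% of all genes. The other 16 did not pass, and the median difference over the 26 was -0.17. Only 4 fell without wild-type array 1 or 4, and 5 fell without knockout array 2, 3 or 4. Their mean log2 signal was 8.42 to 8.70 on the wild-type arrays and 8.26 to 8.33 on the knockout arrays. Greb1, a gene induced by oestrogen, fell from 9.54 ± 0.165 to 8.86 ± 0.281 (SD, n = 4 each), and Inhbb, the beta B subunit of inhibin and activin, from 10.59 ± 0.498 to 9.40 ± 0.395 (limma, adjusted p = 0.0101 and 0.0127). Bmpr1b, a receptor of bone morphogenetic proteins, rose 1.33-fold (adjusted p = 0.00204), and Gata4, a zinc finger factor of granulosa cells, 1.48-fold (adjusted p = 0.039), a call that ended in 6 of 8 fits without 1 array. Probe sets that fell were 2 of 4 for Greb1 and 1 of 2 for Inhbb. Those that rose were 3 of 3 for Bmpr1b and 1 of 2 for Gata4. Named after their values were seen, Inha, Fst and Npr2, like Hsd17b1, had their highest values on wild-type arrays 1 and 4. Inha read 11.33, 10.69, 10.20 and 11.41 in wild type, against 10.30, 9.78, 9.51 and 10.05 in knockout (a fall to 0.501 of the wild-type signal, adjusted p = 0.0338). The groups overlapped, and this call ended in 6 of 8 fits without 1 array, as did those of Npr2 and Gja1, while that of Nppc ended in 7. Amh, the hormone of granulosa cells of growing follicles, which like Gja1 and Nppc was named after its values were seen, read 7.24 to 7.37 in wild type, against 7.20 to 7.36 in knockout (adjusted p = 0.889). The array has no zero, so no marker can be called absent, and the part of these cells in the members' differences was not tested.

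Markers of theca and stroma cells did not move together. Of 20 measured, 2 (10%) fell and 1 (5%) rose, beside 12.8% and 8.18% of all genes. Their median difference was 0.05, and their mean was 6.58 to 6.78 in wild type, against 6.62 to 6.67 in knockout. The smooth muscle genes Myh11 (9.82 to 8.82) and Cnn1 (8.72 to 7.97) fell, and Hhip, which binds hedgehog ligands, rose 1.30-fold (limma, adjusted p = 0.000204, 0.00343 and 0.018), a call that ended in 3 of 8 fits without 1 array. Of their probe sets, 1 of 2 fell for Myh11 and 1 of 4 rose for Hhip, while Cnn1 had 1. Of 12 endothelial markers 3 (25%) fell and 0 rose, beside the same 12.8% and 8.18% (median -0.21). The vascular growth factor receptor Flt1 fell from 9.80 to 7.96, Tek from 8.71 to 7.93 and Kdr, named after its values were seen, from 8.28 to 7.75 (limma, adjusted p = 0.00148, 0.00187 and 0.00707). All 4 Flt1 probe sets fell. The mean of the 12 markers was 6.73 to 6.85 in wild type, against 6.29 to 6.46 in knockout. Of 13 leukocyte and blood markers 0 fell and 4 (30.8%) rose, beside the same shares of all genes (median 0.18). C1qb, a chain of complement, was 5.12-fold higher (8.82 to 11.17) and Cd68, a macrophage lysosomal protein, 2.24-fold higher (limma, adjusted p = 2.6e-05 and 5.36e-05). The integrin chains Itgb2 (3.04-fold) and Itgam (1.31-fold), named after their values were seen, were the others, and the Itgam call ended in 6 of 8 fits without 1 array. Their mean was 6.50 to 6.58 in wild type, against 6.95 to 7.12 in knockout. The part of these cells was not tested.

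Of 29 other genes of steroid synthesis measured, 5 (17.2%) fell and 1 (3.45%) rose, beside 12.8% and 8.18% of all genes, and 23 did not pass. The difference was below 0 in 18 and above 0 in 11, with a median of -0.10. Scarb1, the receptor that takes up cholesterol from high-density lipoprotein, read 10.26, 10.29, 10.09 and 10.08 in wild type, against 9.28, 9.14, 8.92 and 9.35 in knockout. It fell to 0.497 of the wild-type signal, in all 3 of its probe sets (limma, adjusted p = 0.000233 for the brightest). Cyb5a, cytochrome b5, which helps Cyp17a1 make androgens, fell from 13.17 ± 0.173 to 12.41 ± 0.0786 (SD, n = 4 each, adjusted p = 0.000644). The others that fell, named after their values were seen, were Stard5, a sterol-binding relative of Star (11.25 to 9.79), Hsd17b4 of peroxisomal fat oxidation (10.73 to 10.09), and Cyp1b1, which hydroxylates oestradiol (8.67 to 7.12). Of their probe sets, 3 of 4 fell for Stard5, 2 of 2 for Hsd17b4 and 2 of 3 for Cyp1b1. Hsd17b7, which acts in cholesterol synthesis and on oestrone, rose 1.72-fold (adjusted p = 0.0126) in its brightest probe set, and 2 of its 4 probe sets passed. Hsd3b1, which makes progesterone from pregnenolone, read 8.77 and 8.27 (adjusted p = 0.116), and Fdx1, which passes electrons to Cyp11a1, 11.37 and 11.53 (adjusted p = 0.658), both named after their values were seen. Each of the 6 calls held without each single array.

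**Figure D4:**
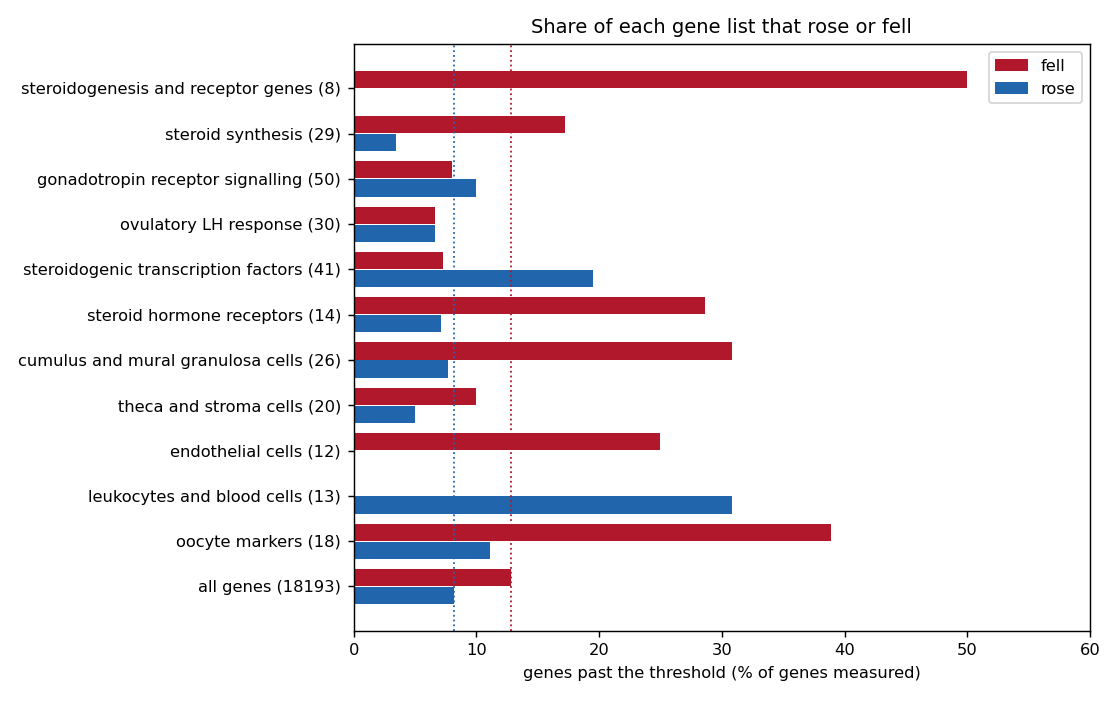
Percent of the genes of each list that fell (red) or rose (blue) past the threshold, with the number of genes measured in brackets and dotted lines at the shares over all genes, 12.8% fell and 8.18% rose. The shares that fell were 50% of the 8 steroidogenesis and receptor genes, 38.9% of oocyte markers, 30.8% of granulosa markers, 28.6% of steroid hormone receptors, 25% of endothelial markers and 17.2% of steroid synthesis genes, with at most 10% in the other lists. All of these genes were chosen with earlier results of these data known.

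Of 50 genes that carry the gonadotropin signal inside the cell, 4 (8%) fell and 5 (10%) rose, beside 12.8% and 8.18% of all genes. Their median difference was 0.02. Without knockout array 3 only 1 fell, without knockout array 1 or 4 or wild-type array 2 or 4 only 2 fell, and without knockout array 2 there were 8 that rose. Igf1r, the receptor of insulin-like growth factor, fell from 8.86 to 8.01 and Akap1, which anchors protein kinase A, from 12.15 to 11.81 (limma, adjusted p = 0.000952 and 0.0219). Pde4b, which degrades cAMP, rose 1.63-fold and Prkar2a, a regulatory subunit of protein kinase A, 1.54-fold (adjusted p = 0.00149 and 0.00364). Named after their values were seen, Pde10a and Adcy9 also fell, and the cyclases Adcy1 (2.14-fold) and Adcy8 and the kinase Sgk1 (3.44-fold) also rose. The calls of Akap1, Pde10a, Adcy9 and Adcy8 each ended in 5 of 8 fits without 1 array. Probe sets that fell were 2 of 5 for Igf1r, 2 of 2 for Akap1, 1 of 5 for Pde10a and 1 of 4 for Adcy9. Those that rose were 2 of 6 for Pde4b, 2 of 4 for Prkar2a and 1 of 2 for Adcy1. Adcy8 and Sgk1 had 1 probe set each. Of 30 genes of the ovulatory response to luteinising hormone, 2 (6.67%) fell and 2 (6.67%) rose, beside the same 12.8% and 8.18% (median -0.01). Egfr, the receptor that relays this signal in granulosa and cumulus cells, read 10.81, 11.04, 11.06 and 10.91 in wild type, against 9.93, 9.70, 9.45 and 9.79 in knockout, a fall to 0.424 (adjusted p = 9.62e-05). Its groups lay apart, and 2 of its 7 probe sets passed. Nrip1, a nuclear receptor corepressor, fell from 10.39 to 9.89, while Cebpb rose 1.47-fold and Nr4a2 1.22-fold (adjusted p = 0.0164, 0.00531 and 0.0482). The Nr4a2 call ended in 7 of 8 fits without 1 array. Of their probe sets, 2 of 6 fell for Nrip1, while 2 of 2 rose for Cebpb and 3 of 6 for Nr4a2.

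Of 41 transcription factors of steroidogenic cells, 8 (19.5%) rose and 3 (7.32%) fell, beside 8.18% and 12.8% of all genes. The difference was below 0 in 20 and above 0 in 21, with a median of 0.01, and without wild-type array 2 there were 5 that rose. Zfpm2, a partner of GATA factors, rose 2.85-fold (6.81 ± 0.202 to 8.32 ± 0.473, SD, n = 4 each) and Cebpb, which is in the ovulatory list too, 1.47-fold, while Sox8 fell from 8.12 to 7.12 and Esrrg, an orphan receptor, from 10.65 to 10.23 (limma, adjusted p = 0.00124, 0.00531, 0.00017 and 0.00934). The third gene that fell was Srebf1, chosen with its values in view, and its call ended in 6 of 8 fits without 1 array. Of the probe sets, 2 of 2 rose for Zfpm2 and 1 of 3 fell for Esrrg, while Sox8 and Srebf1 had 1 each. Of 14 receptors and partners of steroid hormones, 4 (28.6%) fell and 1 (7.14%) rose, beside 12.8% and 8.18% of all genes (median 0.06). Only 2 fell without knockout array 1 or 2. Esr1, the alpha oestrogen receptor, read 10.95, 10.68, 10.60 and 10.79 in wild type, against 11.66, 11.46, 11.57 and 11.64 in knockout, a 1.77-fold rise (adjusted p = 0.000331). Esr2, the beta receptor that predominates in granulosa cells and is in the granulosa list too, read 9.10, 9.04, 9.20 and 9.16 in wild type, against 8.75, 8.71, 8.69 and 8.93 in knockout, a fall by 0.36 (adjusted p = 0.0129). The groups did not overlap in either gene, and the 2 receptors moved in opposite directions. Pgrmc2 fell by 0.30 (adjusted p = 0.0145), and Paqr8 and Fkbp5, named after their values were seen, fell by 0.47 and 0.27. The Paqr8 call ended in 2 and the Fkbp5 call in 7 of 8 fits without 1 array. Probe sets that fell were 1 of 2 for Pgrmc2, 2 of 4 for Paqr8 and 1 of 3 for Fkbp5. For Esr1, 2 of 3 rose, and Esr2 had 1 probe set.

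Genes whose pattern over the 8 arrays was most like that of the brightest Cyp11a1 probe set were sought among 18185 other genes. By Pearson correlation of levels these were Nanos1 (r = 0.994), Ap1s2 (0.992), Nfkbia (0.987), Dek (0.983) and Zfp568 (0.982), a measure in which the difference between the groups takes part. Nanos1, an RNA-binding repressor of germ cells, read 9.40, 9.30, 8.85 and 9.31 in wild type, against 8.31, 7.79, 8.08 and 8.78 in knockout. Like Cyp11a1, it was lowest on wild-type array 3 among wild-type arrays and lowest on knockout array 2 and highest on knockout array 4 among knockout arrays. After each group's mean was subtracted the closest were Nanos1 (0.98), Ctsc (0.976), Dpf3 (0.976), Ap1s2 (0.973) and Ube2v2 (0.972). Dpf3 is higher in knockout (10.58 and 11.58), so it shares the variation within groups but not the direction between them. These correlations describe 8 arrays and carry no test. They are the highest among 18185 genes, so high values follow partly from that choice.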

How the data were processed

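RNA of 20 oocytes per mouse was measured on 1 array for each of 8 mice, grouped by the genotype label. The authors deposited log2 signals per probe set, and per the submitters' processing notes RMA and Partek were used. Their versions and the genome build were not given in the sources used here. Since RMA leaves part of the background in dim probe sets, their differences understate those of the RNA. Of 45101 probe sets, 64 controls were left out.

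All 45037 others were fitted with limma 3.58.1 in R 4.3.3 (knockout minus wild type, no covariates, Benjamini-Hochberg over all of them), with adjusted p under 0.05 as the threshold for rose and fell. A gene was represented by its brightest probe set with 1 symbol. Fold values were obtained by raising 2 to the log2 difference. Intervals come from the moderated SE. Permutation tests were exact over 70 arrangements. The scripts were tested on simulated data.

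The members and the 10 gene lists were chosen with earlier results of these data known. Named were all members, Dicer1, the 5 genes most like Cyp11a1 by each measure, and, per list, the 2 genes with the lowest p in each direction among those that passed. Others were named after their values were seen, where so stated. The members stand in no list, and 13 of 268 list genes stand in more than 1. No label says how mice were related, so p-values measure the spread between these arrays.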

Additional observations from a re-analysis of the deposited data

Results flagged for a closer look

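In each group of 4 arrays a single array far from the other 3 was looked for in 54 sets of values, the 17 probe sets and the means of 10 gene lists. It was found in 3 sets, where chance gives about 1 in 20. Cyp17a1 read 5.76 on knockout array 1 and 6.40 to 6.48 on the other knockout arrays. The mean of the ovulatory response genes was 7.09 on wild-type array 4, where wild-type arrays 1 to 3 had 7.16 to 7.18. The mean of the granulosa markers was 8.33 on knockout array 4 and 8.26 on each of the other knockout arrays. The 3 cases lie on different arrays, and no cause was tested.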

How the results depend on the processing

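For single probe sets of the members, 252 of 280 comparisons with an alternative kept direction and call, 17 lost the call, 4 gained it and 7 changed sign, all of the last in Foxl2 and Star, which had not passed. With the first title number as a fixed replicate block, where the difference rests on the 2 numbers found in both groups, 0 members fell (4 without it) and 0 rose, 1222 and 969 of all probe sets fell and rose (4192 and 3072), and 10 and 8 of the list genes (37 and 24). Under it the differences were -1.75 for Cyp11a1, -0.45 for Nr5a2, -0.49 for Fshr and -0.55 for Hsd17b1 (-1.57, -0.44, -0.50 and -0.80 without it). The fit also estimates a term for each title number, which leaves less information on the spread between arrays. The cause of the lost calls was not tested. Deviations from the group means correlated at -0.28 for number 24 and 0.12 for number 27, where all wild-type with knockout pairs spanned -0.28 to 0.26. The pair of number 24 stood at the low end of these. Since the span includes both same-number pairs, it cannot show whether the numbers pair the arrays. As a random replicate block (consensus correlation -0.0778) the number changed no member call. The rise of the dimmest Cyp11a1 probe set was lost (0 rose) with the filter on dim probe sets and without suffixed probe sets, where it was not tested. Without single arrays, 2 to 5 members fell and 0 to 1 rose, 3150 to 3778 and 2306 to 2851 of all probe sets fell and rose, 26 to 35 and 16 to 26 list genes did, and the groups did not overlap in 4 to 5 of 8 genes (4 with all arrays). Foxl2 in its brighter probe set differed by 0.17 with the fixed block, 0.02 with quantile scaling, and -0.08 to 0.07 without single arrays (0.07, 0.05 and 0.03 where the sign changed). Without single arrays the dimmer one lay between -0.10 and 0.01 and the brightest Star probe set between -0.18 and 0.00469. Low signal limits the dim probe sets, and 4 arrays per group limit the rest.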
